A study of Rattus norvegicus with 14 samples.

Results

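The genes described here are 10 chemokines: the CXC chemokines Cxcl13, Cxcl12, Cxcl14, Cxcl9, Cxcl10 and Cxcl16, the CC chemokines Ccl2, Ccl7 and Ccl5, and the CX3C chemokine Cx3cl1. They were taken as every probe set whose only gene symbol was one of these names, which gave 14 of 31099 probe sets and 10 of 14217 genes. Cxcl12 had 3 probe sets, Cxcl14 and Cxcl9 had 2 each, and the others had 1. All 10 passed the filter on dim genes, which kept 11054 genes. The members were selected on their signals on these same arrays, so their levels and differences are descriptions and carry no test. Tests are given for the other genes of the chemokine system. The lists of those genes and of cell markers were also chosen with earlier results of these data known. Their p-values do not allow for that choice, and the counts of list genes called are descriptions.

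The soleus, a slow postural muscle of the hind limb, was taken from 12 male Sprague Dawley rats, and its RNA was hybridised to 14 expression arrays. Tenotomy cuts the tendon of the muscle, which then shortens and no longer bears load. The control group held 4 left soleus muscles, called control replicates 1 to 4 in this order throughout; replicates 1 and 4 came from rats 62 and 61, and replicates 2 and 3 from 2 rats without another array. Short-term tenotomy covered 6 right muscles: rats 12 and 13 at 1 week, rats 25 and 27 at 2 weeks, rat 32 at 3 weeks and rat 42 at 4 weeks. Long-term tenotomy covered 4 right muscles: rats 61 and 62 at 6 weeks and 1 further rat each at 16 and 22 weeks. Rats 61 and 62 thus gave both a tenotomized muscle and a control from the opposite leg. The sample labels call the 2 tenotomy groups short-term immobilized and long-term immobilized. They give no week for the controls, so no control is known to match weeks 1 to 4. Each week is a different animal or pair of animals, so the order of weeks below is an order across rats, and weeks 3, 4, 16 and 22 rest on 1 array each. The rats' ages are not given in the sources used here.

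Chemokines are small secreted proteins that attract leukocytes along a gradient by binding receptors that signal through G proteins. In damaged skeletal muscle, Ccl2 and Ccl7 draw monocytes through the receptor Ccr2, Cxcl9 and Cxcl10 are interferon-induced ligands of Cxcr3 on T and natural killer cells, and Cxcl13 attracts B cells and follicular helper T cells through Cxcr5. Cxcl12 is a constitutive chemokine made by stromal cells that binds Cxcr4, while Cx3cl1 and Cxcl16 are made as membrane-bound proteins that can be shed.

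The promoters of 4 genes are shown because their genes form the pairs and the extreme of the pattern described below: Cxcl9 and Cxcl10 are adjacent coding genes on chromosome 14, Ccl7 is next to Ccl2 on chromosome 10, and Cxcl13 had the largest difference of the 10 genes. Each stretch is 300 bases of the rat build GRCr8 from RefSeq, 250 before and 50 after the annotated start of the gene, read 5′ to 3′ on the strand of the gene. Capitals mark a match to any of 4 letter patterns on either strand, which were chosen with these sequences known: GGAAANNCC for NF-kB, GAAA, any 2 bases and GAAA for the interferon-stimulated response element, TTCNNNGAA for the STAT-binding GAS element and TATAAA for the TATA box. None of the capitals below is shared by overlapping patterns.
Cxcl13, chr14:13917871-13918170, minus strand: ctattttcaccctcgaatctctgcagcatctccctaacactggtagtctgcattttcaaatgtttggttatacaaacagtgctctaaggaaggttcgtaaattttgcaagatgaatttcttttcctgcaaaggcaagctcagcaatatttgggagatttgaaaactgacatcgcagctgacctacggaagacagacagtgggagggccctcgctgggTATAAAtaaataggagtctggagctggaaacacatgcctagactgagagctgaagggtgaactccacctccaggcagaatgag
Ccl7, chr10:67513845-67514144, plus strand: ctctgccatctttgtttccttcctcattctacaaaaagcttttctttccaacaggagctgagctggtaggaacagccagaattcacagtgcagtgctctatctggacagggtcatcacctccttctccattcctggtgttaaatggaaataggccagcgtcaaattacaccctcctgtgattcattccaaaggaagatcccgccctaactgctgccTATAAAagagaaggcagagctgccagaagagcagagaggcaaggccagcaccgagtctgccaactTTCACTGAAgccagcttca
Cxcl9, chr14:16006916-16007215, plus strand: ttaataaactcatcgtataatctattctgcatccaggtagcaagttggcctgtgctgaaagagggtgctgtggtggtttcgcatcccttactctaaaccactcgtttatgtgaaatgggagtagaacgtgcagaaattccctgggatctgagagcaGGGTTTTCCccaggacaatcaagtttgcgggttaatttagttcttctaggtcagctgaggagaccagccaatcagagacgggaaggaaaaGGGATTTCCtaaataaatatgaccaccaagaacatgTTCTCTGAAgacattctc
Cxcl10, chr14:15988816-15989115, plus strand: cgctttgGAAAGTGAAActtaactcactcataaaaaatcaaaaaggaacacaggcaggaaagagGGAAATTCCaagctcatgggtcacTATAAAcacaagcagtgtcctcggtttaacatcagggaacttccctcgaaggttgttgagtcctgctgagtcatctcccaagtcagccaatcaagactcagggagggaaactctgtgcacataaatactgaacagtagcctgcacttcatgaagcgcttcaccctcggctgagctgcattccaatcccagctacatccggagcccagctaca

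The Cxcl10 promoter held an interferon-response match that began 243 bases before the start, an NF-kB match 186 bases before it and, nearer to the start, a TATAAA. Cxcl9 held NF-kB matches on the reverse strand that began 94 and 4 bases before its start, and a GAS match 33 bases after it. In the Ccl7 promoter a TATAAA began 34 bases before the start and a GAS match 32 bases after it, and in that of Cxcl13 only a TATAAA was found, 33 bases before the start. Over 33469 rat promoters of this length, 6.05% held the NF-kB pattern, 3.92% the interferon-response pattern, 8.87% the GAS pattern and 14.2% the TATAAA. Promoters of Cxcl12, Cxcl14, Cxcl16 and Cx3cl1 were also searched, and the only match was a TATAAA of Cx3cl1 that began 78 bases before the start. Those of Ccl2 and Ccl5 were not searched. These are matches of letters and show no binding.

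Signals are the authors' MAS5 intensities, set here to a common median across the arrays, because the array medians spanned 0.73 on the log2 scale. Signals of different probe sets are not comparable with each other, so each gene is compared only with itself. After this scaling the median gene was 0.34 lower (log2) in short-term than in control muscle, and log2 changes are given relative to that median gene unless they are called a signal or a ratio of signals. Every p-value is for the change before that subtraction, so it is not a test of the relative change printed beside it. Of the 11054 genes tested, limma called 1358 higher and 4382 lower in short-term than in control muscle at an adjusted p under 0.05, so 23.7% of the calls were higher; with a common 2% trimmed mean the split was 2575 higher and 2027 lower, or 56% higher. The 6 short-term arrays were apart from the other 8 on the leading principal component, which carried 56.8% of the variance. The 3′ to 5′ signal ratio of Gapdh, a sign of RNA integrity, was 1.16 to 1.61 in short-term, 1.38 to 2.78 in control and 1.38 to 2.78 in long-term muscle. The mean signal of the poly-A spike-in probe sets was 281 to 708 in short-term, 166 to 239.6 in control and 189 to 311 in long-term muscle, so it too moved with the groups. The part of either in the results was not tested. Markers of skeletal muscle were present on all arrays, with summed signals of 77917 to 102218 in control, 64558 to 91826 in short-term and 85632 to 124802 in long-term muscle.

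Short-term tenotomized soleus carried more chemokine mRNA than control soleus for most of the 10 genes. Relative to the median gene 9 of the 10 were higher, with a median log2 difference of 1.15, where the quartiles over all genes tested were -0.37 and 0.50. Cxcl13, Ccl7 and Ccl2 stood highest, Cxcl12 by its brightest probe set was level, and Cx3cl1 was lower. In long-term against control muscle the median over the 10 genes was -0.07, and 3 of the 10 were above the median gene. By the adjusted p threshold that the tests of other genes use, 5 of the 10 were called higher in short-term muscle (12.3% of all genes) and 1 lower (39.6% of all genes); the list was drawn up with this contrast in view, so nothing is read from these counts. In long-term against control muscle limma called 0 of the 11054 genes, and 217 (1.96%), none of them among the 10, had an unadjusted p under 0.05.

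**Figure D1:**
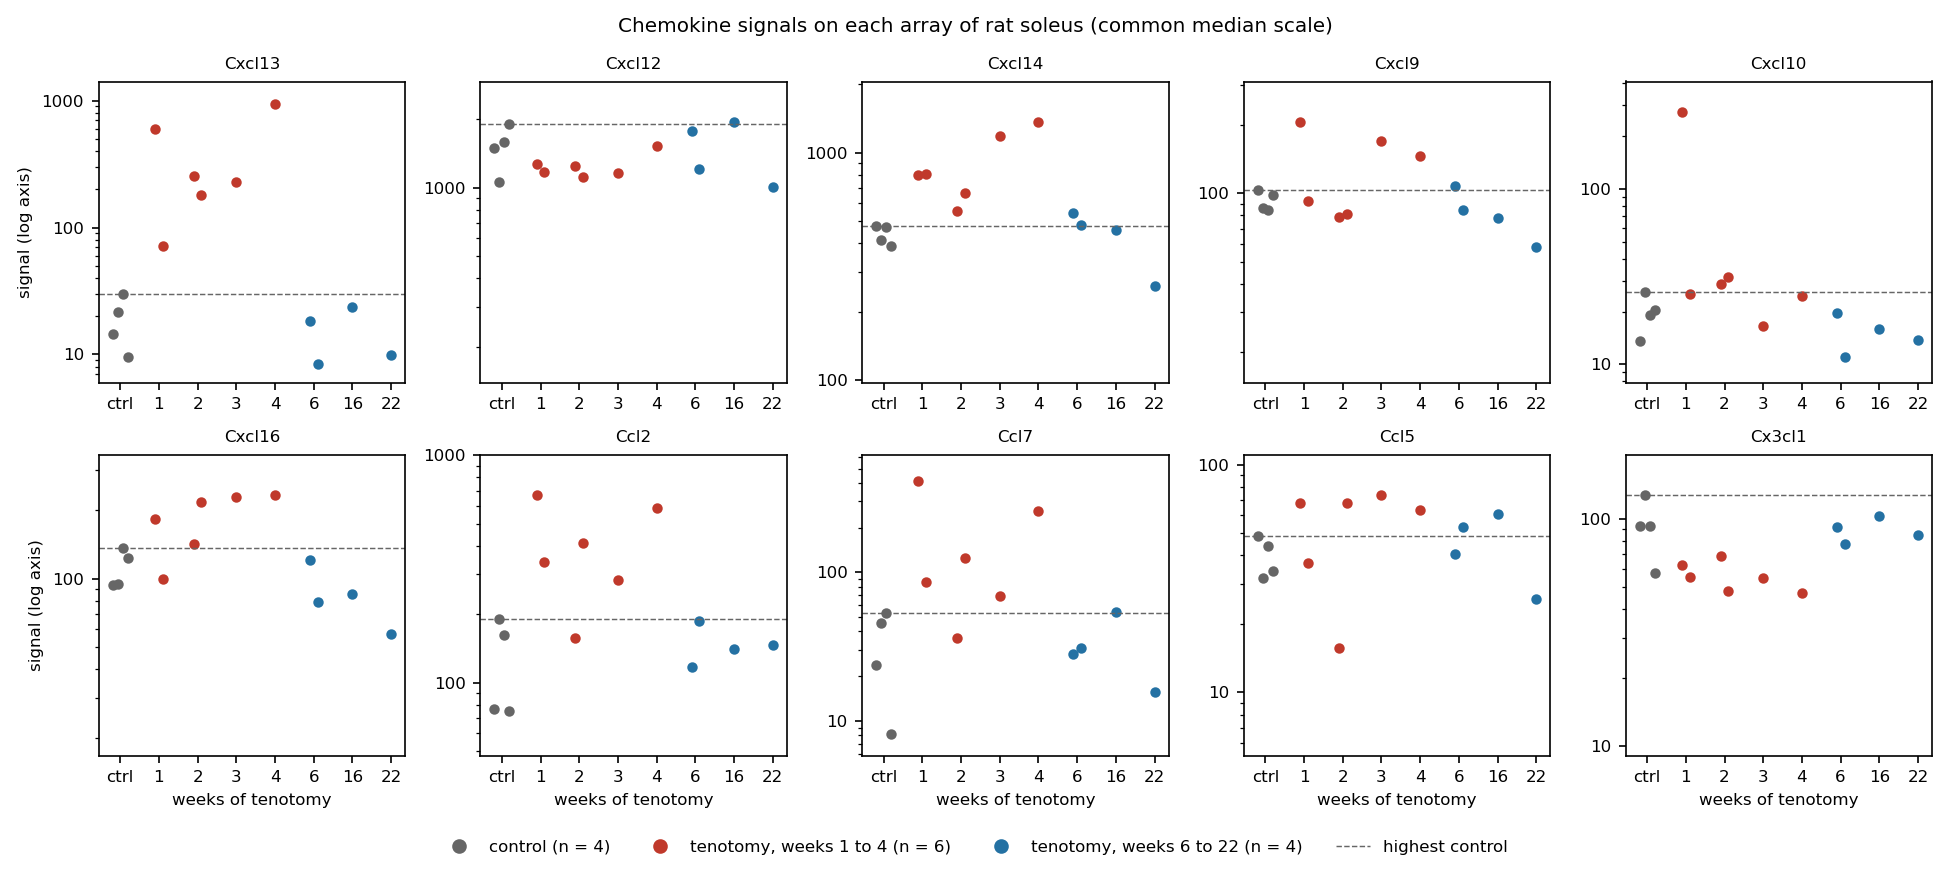
Signal of each of the 10 chemokines on each of the 14 arrays (log axis, common median scale), by weeks of tenotomy, with the highest control as a dashed line. Cxcl13 lies between 71.3 and 944 on the 6 short-term arrays against at most 29.8 in controls, Cxcl10 is far above the rest on 1 week 1 array, and all 4 long-term arrays lie near the controls for most genes.

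Cxcl13, the B-cell attractant, showed the largest difference. Its signals in control replicates 1 to 4 were 14.6, 21.5, 29.8 and 9.48. At 1 week it was 599.6 in rat 12 and 71.3 in rat 13, at 2 weeks 253 and 179, at 3 weeks 228 and at 4 weeks 944. Every short-term array was above every control, although the 6 values spread widely, and the 2 rats at 1 week differed most within a week. At 6 weeks the signals were 18.2 and 8.42, at 16 weeks 23.8 and at 22 weeks 9.90, so no long-term array was above the highest control. Relative to the median gene the log2 change was 4.32 (SE 0.55) in short-term against control and -0.31 (SE 0.60) in long-term against control muscle. The control and long-term signals are dim, and the size of the difference rests on them. Control replicate 4 (9.48) and the 6-week array of rat 62 (8.42) were just under the floor of 9.71 applied to dim values and were set to it.

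Cxcl14, a chemokine that fibroblasts and epithelia make without stimulation, was the other gene whose 6 short-term arrays were all above the controls; 6.9% of all genes tested met the same condition. Its brighter probe set read 474, 412, 471 and 389.8 in the controls. Short-term signals were 799.7 and 802 at 1 week, 552 and 667 at 2 weeks, 1178 at 3 weeks and 1367 at 4 weeks. The rats at 1 week were nearly equal, those at 2 weeks stood nearest to the controls, and weeks 3 and 4 were the highest. Long-term signals were 541 and 479 at 6 weeks, 455 at 16 weeks and 259 at 22 weeks, so both 6-week arrays were still just above the highest control and the 22-week array was below the lowest. The log2 change relative to the median gene was 1.31 (SE 0.24) in short-term and -0.08 (SE 0.26) in long-term muscle against control. A dimmer probe set of the same gene (1396129_at), with signals from 2.91 to 34.6, showed no such separation.

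Ccl2 and Ccl7, the neighbouring monocyte attractants, were high and low in the same rats. Ccl2 signals in controls were 76.4, 191, 161.7 and 75.2. At 1 week they were 671 and 339, at 2 weeks 157 and 410.3, at 3 weeks 282 and at 4 weeks 585. The 2-week muscle of rat 25 was the only short-term array inside the control range. Ccl7 gave 23.6, 45.9, 53.1 and 8.15 in the same controls. Its short-term signals were 414 and 86.3 at 1 week, 36.3 and 125 at 2 weeks, 69.4 at 3 weeks and 260.1 at 4 weeks, and again only rat 25 lay inside the control range. Both genes were highest in rats 12 and 42. The log2 changes relative to the median gene in short-term against control muscle were 2.01 (SE 0.36) for Ccl2 and 2.47 (SE 0.60) for Ccl7.

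In long-term muscle Ccl2 was 118 and 187 at 6 weeks, 141 at 16 weeks and 147 at 22 weeks, all within the control range. Ccl7 was 28.1, 30.9, 53.6 and 15.6 on the same arrays, and only the 16-week value passed the highest control, by a margin of 53.6 to 53.1. Control signals of both genes split by animal: replicates 2 and 3 were higher than replicates 1 and 4, which came from rats 62 and 61 with the opposite muscle tenotomized. The sources used here do not say whether the rats of replicates 2 and 3 had a tenotomized muscle. Within rats 61 and 62, Ccl2 was 1.57 and 2.45 times higher in the 6-week muscle than in the opposite control muscle, and Ccl7 was at least 2.90 times higher in rat 61, whose control was under the floor, and 1.31 times higher in rat 62. With the rat as a block, fitted on the 4 arrays of these 2 rats at 6 weeks, the log2 change of Ccl2 was 1.05. The unpaired change against all 4 controls was 0.41 at 6 weeks, and 0.32 for the long-term group, which also holds weeks 16 and 22.

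Cxcl9 and Cxcl10, the Cxcr3 ligands, shared their highest array, the 1-week muscle of rat 12. Cxcl10 read 273 there, and 25.2 in the other 1-week rat, 28.9 and 31.6 at 2 weeks, 16.6 at 3 weeks and 24.6 at 4 weeks, against controls of 13.6, 25.8, 19.1 and 20.4. Without rat 12 the log2 change of Cxcl10 in short-term muscle went from 1.29 (SE 0.56) to 0.71. Cxcl9 read 207 in rat 12 and 92.1 in rat 13, then 78.7 and 81.0 at 2 weeks, 170.2 at 3 weeks and 146 at 4 weeks, with controls of 103, 86.2, 84.7 and 98.0. On this common median scale it was, unlike Cxcl10, above all controls again at weeks 3 and 4. At week 2 it was below all of them, as 45.2% of all genes were. Both statements depend on the scaling. With the 75th percentile or the trimmed mean Cxcl9 was above all controls at week 2 too, and under the 4 other scalings Cxcl10 was above all controls at week 4. The log2 change of Cxcl9 was 0.72 (SE 0.27), and 0.56 without rat 12. A second Cxcl9 probe set (1382454_at) gave 137 in rat 12, 79.1 in rat 13 and 61.5 to 66.7 in controls, so with it both 1-week rats were above all controls, whereas with the brighter probe set rat 13 was not. In long-term muscle Cxcl10 lay between 11.0 and 19.6 and Cxcl9 between 58.3 and 108.

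The muscle of rat 12 stood apart for further genes outside the list. Cxcl11, the remaining Cxcr3 ligand and the neighbour of Cxcl10, did not pass the filter on dim genes and is named after its values were seen: it read 158 in rat 12 and 9.61 to 22.0 in the other short-term muscles. The interferon regulatory factors Irf7 and Irf8 read 1208 and 296 in rat 12, against at most 395 and 125 on the other short-term arrays. The genes whose profile over the 14 arrays was nearest to that of Cxcl10 were Isg15, Zbp1 and Gbp4, which are interferon-induced. Their root mean square differences from Cxcl10 were 0.60, 0.64 and 0.64 on the log2 scale, where the median over all genes was 1.23. A gene that did not vary over the arrays would differ from Cxcl10 by 1.07. Isg15 was 1121 in rat 12 and 124 to 247 in the other short-term muscles. On that array the summed signal of 7 natural killer cell markers, of which only 2 passed the filter, was the highest of the short-term group, 168 in a range of 83.3 to 168. The summed endothelial and adipocyte markers, 2189.6 and 1169, were the lowest. Sums of T lymphocyte, macrophage and fibroblast markers, 352, 8707.5 and 33334 in rat 12, were inside the range of the short-term group. The part of these in the rat 12 values was not tested.

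Cxcl16, which binds Cxcr6 and also scavenges oxidised lipid, had its highest signals in the muscles of weeks 3 and 4. Controls were 93.9, 94.4, 136 and 123. Short-term signals were 182 and 99.996 at 1 week, 142 and 217 at 2 weeks, 228 at 3 weeks and 234 at 4 weeks, so 5 of 6 were above all controls and rat 13 was not. Long-term signals were 121 and 79.0 at 6 weeks, 85.6 at 16 weeks and 57.1 at 22 weeks, with 3 of 4 below all controls. The log2 change was 1.02 (SE 0.25) in short-term and -0.44 (SE 0.28) in long-term muscle against control.

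Ccl5, an attractant of T cells and monocytes, differed little. Its controls were 48.5, 31.9, 44.2 and 34.1. Short-term signals were 67.7 and 37.0 at 1 week, 15.7 and 67.8 at 2 weeks, 74.0 at 3 weeks and 63.6 at 4 weeks, so 4 were above all controls and rat 25 was below all of them. The 2-week rats differed more from each other than the groups did, and the log2 change was 0.65 (SE 0.38). In long-term muscle it lay between 25.6 and 60.7.

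Cx3cl1, the membrane-bound fractalkine of endothelium and other cells, was the only gene of the 10 below the median gene in short-term against control muscle. Short-term signals were 62.8 and 55.6 at 1 week, 68.9 and 48.0 at 2 weeks, 55.0 at 3 weeks and 47.2 at 4 weeks, against 93.2, 128, 93.4 and 57.9 in controls. The control muscle of rat 61 overlapped the short-term range, and 4 of 6 short-term arrays were below every control. The signal of the median gene was lower too, and relative to it the log2 change was -0.34 (SE 0.21). Long-term signals were 92.4, 77.2, 103 and 84.6, inside the control range. Endothelial markers are given beside it: 0 of 8 were called higher and 1 lower (Kdr, a receptor of vascular growth factor), where 12.3% and 39.6% of all genes were. Their summed signals were 3077 to 3764 in control and 2189.6 to 4296 in short-term muscle. Their part in the Cx3cl1 values was not tested.

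Cxcl12 gave a different answer from each of its 3 probe sets. The brightest, 1388583_at, which stands for the gene in the fit, read 1492, 1057, 1581 and 1908 in controls and 1268, 1173, 1246, 1113, 1161 and 1525 in the 6 short-term arrays in order of weeks, inside the control range throughout. Probe set 1369633_at read 679, 566, 592 and 619 in controls; its short-term signals were 869 and 688 at 1 week, 819 and 619 at 2 weeks, 1506 at 3 weeks and 1287 at 4 weeks, and 5 of 6 passed all controls. The dim probe set 1387655_at read 5.04, 34.1, 27.6 and 7.04 in controls. Its short-term signals were 130.1, 108, 81.2, 52.0, 64.3 and 172, all above every control. In log2 changes relative to the median gene this was 0.09 (SE 0.19), 0.92 (SE 0.23) and 2.78 (SE 0.47) for the respective probe sets.

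With the mean of the 3 the change of Cxcl12 was 1.22. The deposited files do not say which transcript each probe set reads. In long-term muscle 1387655_at read 24.5 and 35.1 at 6 weeks, 50.7 at 16 weeks and 10.1 at 22 weeks, and within rats 61 and 62 the 6-week muscle was at least 2.53 and 3.62 times the opposite control, whose signals were under the floor. The brightest probe set was 0.93 and 0.81 times the opposite control in the same rats.

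**Figure D2:**
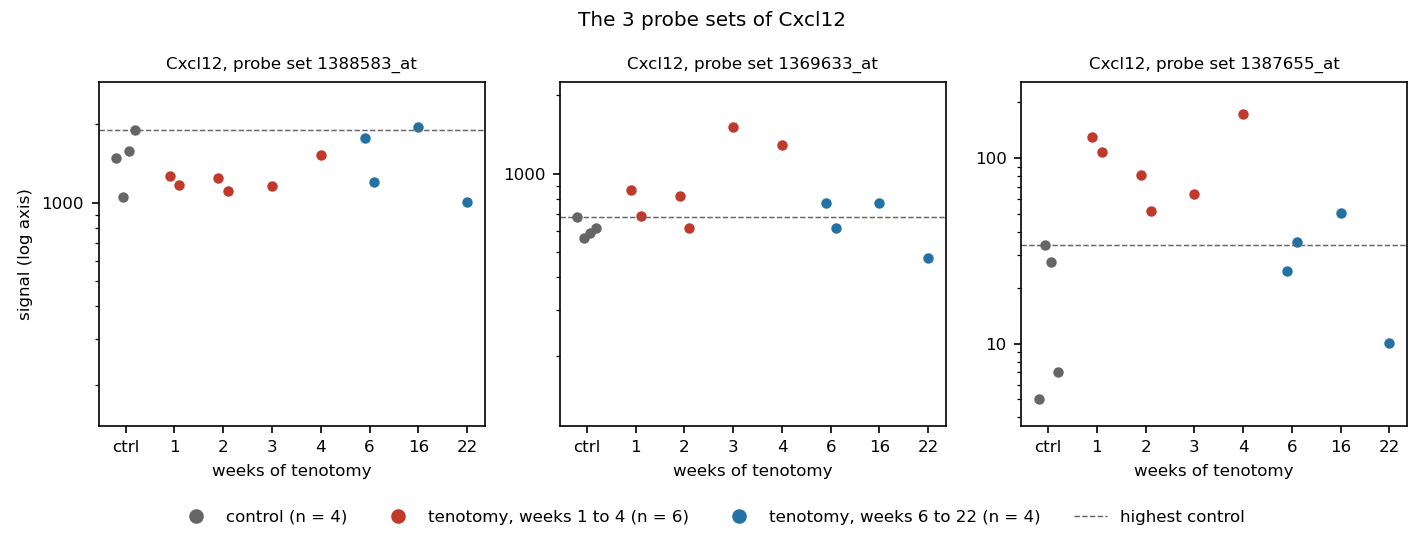
Signal of the 3 probe sets of Cxcl12 on each array (log axes, separate scales), by weeks of tenotomy, with the highest control as a dashed line. Probe set 1388583_at stays within the control range at weeks 1 to 4, whereas all 6 short-term arrays of 1387655_at are above it.

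An order of onset was read, from the brightest probe set of each gene, as the earliest week at which every array passed the highest control. Cxcl13, Cxcl14, Ccl2 and Ccl7 met this at week 1, and 11.2% of all genes did. Cxcl16 and Cxcl10 followed at week 2 (4.81% of all genes), Cxcl9 and Ccl5 at week 3 (12.3%), Cxcl12 at week 16 (11.1%), and Cx3cl1 never (27.7%). The dimmer probe sets gave another order: 1369633_at and 1387655_at of Cxcl12 and 1382454_at of Cxcl9 met the condition at week 1, and 1396129_at of Cxcl14 at week 6. Weeks 1 and 2 require 2 arrays to pass and later weeks mostly 1, so a later week is easier to meet: 24.8% of all genes passed at week 3, and 11.2% at week 1. The week 1 onset of Cxcl13, Cxcl14, Ccl2 and Ccl7 was the same under all 5 array scalings. For the others the scaling set the week. Cxcl9 and Cxcl10 met the condition at week 1 with the 75th percentile, quantile or trimmed-mean scaling, Ccl5 at week 1 with the trimmed mean, and Cxcl16 at week 3 on the deposited scale. Cxcl12 met it at week 4 with quantile or trimmed-mean scaling and at no week with the remaining 2, and Cx3cl1 met it at week 16 on the deposited scale.

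The condition at week 1 also turned on the lower of the 2 rats. In rat 12 alone 8 of the 10 genes were above every control, as 19% of all genes were, and in rat 13 alone 4 of the 10 were, as 14.8% of all genes were. The highest array of Cxcl9, Cxcl10, Ccl2 and Ccl7 was rat 12 at week 1, that of Ccl5 rat 32 at week 3, and that of Cxcl13, Cxcl14 and Cxcl16 rat 42 at week 4. Of all genes tested 4.88% had their highest array at week 1 and 7.33% at week 4. Week by week, 4 of the 10 were above all controls at week 1 and 4 at week 2 (12.9% of all genes), 7 at week 3 and 7 at week 4 (24% of all genes). By week 6 only Cxcl14 had both arrays above all controls (5.19% of all genes), at week 16 Ccl5, Ccl7 and Cxcl12 were above them (17.6% of all genes), and at week 22 none was (44% of all genes) while 5 were below them (16.1% of all genes). No gene of the 10 had all 4 long-term arrays above the controls, as 0.878% of all genes did.

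**Figure D3:**
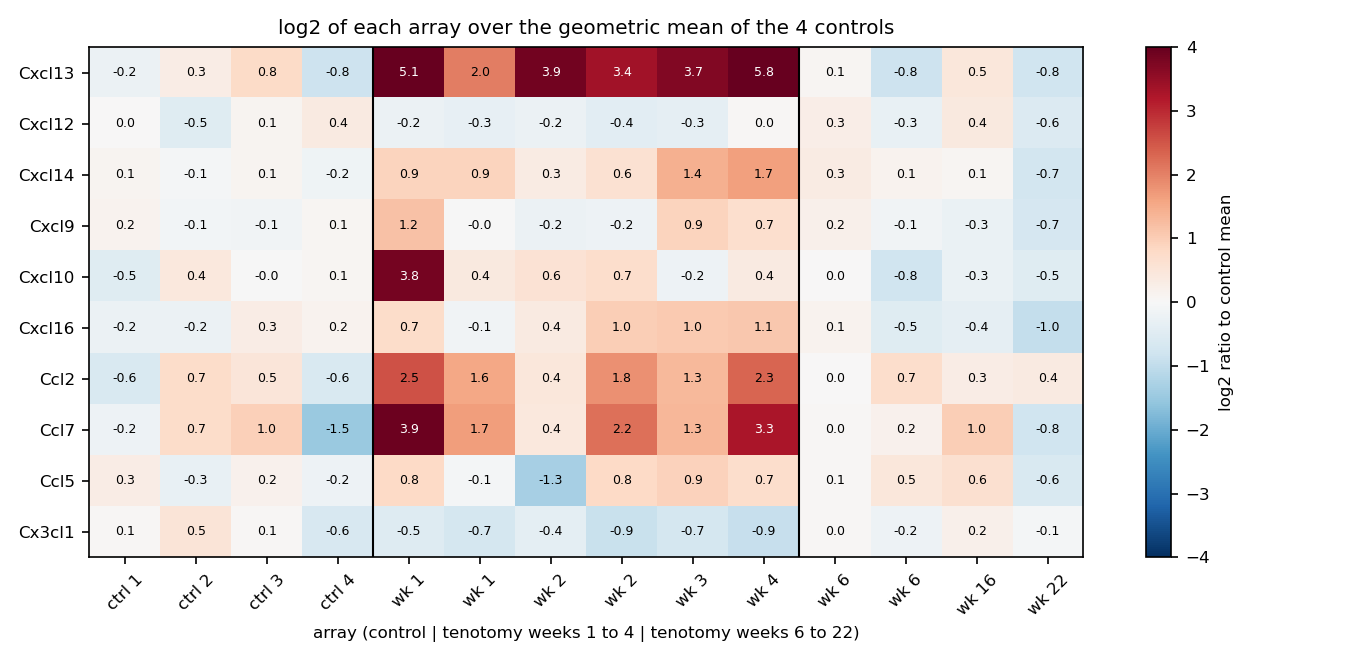
The log2 ratio of each array to the geometric mean of the 4 controls for each chemokine, with colours that saturate at -4 and 4 and with values under the floor set to the floor; these are ratios of signals, not changes relative to the median gene. Cxcl13 is red across all 6 short-term arrays, Cxcl10 in the first week 1 column only, and the long-term columns are pale.

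The long-term against short-term comparison shares the short-term arrays with the one above, and 9 of the 10 genes were below the median gene in it. Relative to the median gene, which was 0.37 higher (log2) in long-term muscle, Cxcl13 differed by -4.63 (SE 0.55), Ccl7 by -2.41 (SE 0.60), Cxcl10 by -1.70 (SE 0.56) and Ccl2 by -1.70 (SE 0.36). Cxcl16 differed by -1.47 (SE 0.25), Cxcl14 by -1.40 (SE 0.24), Cxcl9 by -0.96 (SE 0.27) and Ccl5 by -0.54 (SE 0.38). Cxcl12 by its brightest probe set was at -0.17 (SE 0.19) and Cx3cl1 at 0.30 (SE 0.21). Here 5 of the 10 were called lower (12% of all genes) and 1 higher (42.4% of all genes), from which nothing is read.

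Among the other chemokine ligands, 12 of 21 with a probe set passed the filter, and 5 rose in short-term against control muscle by limma with Benjamini-Hochberg adjustment, where 12.3% of all genes rose; 0 of the 12 fell, and their median log2 change was 0.37. Ccl21, the lymph node and lymphatic ligand of Ccr7, rose by 2.81 (SE 0.48, limma adjusted p = 5.4e-04). Its signals were 326 and 182 at 1 week, 271 and 548 at 2 weeks, 510.3 at 3 weeks and 314 at 4 weeks, against 37.3 to 76.6 in controls, with no overlap. The myeloid ligands Ccl9 and Ccl6 rose by 2.597 (SE 0.74, limma adjusted p = 0.018) and 1.61 (SE 0.24, limma adjusted p = 4.6e-04). Ccl9 was 21.3 and 3.85 at 1 week and 134 and 402 at weeks 3 and 4, above controls of 2.68 to 11.6 on 5 of 6 arrays. Those controls lie at or near the floor, so its log2 change is understated, and its call was lost without the filter (adjusted p = 0.051) or with a higher floor (adjusted p = 0.076).

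Pf4, a platelet and macrophage chemokine, rose by 2.43 (SE 0.47, limma adjusted p = 0.0016), from 129.7 to 270.1 in controls to 234 to 1886 in short-term muscle, higher than all controls on 5 of 6 arrays. Ccl24, an eosinophil attractant, rose by 1.13 (SE 0.27, limma adjusted p = 0.023); the call was lost on the deposited scale (0.056) and without control replicate 1 (0.091) or 4 (0.07). Relative to the median gene the neutrophil attractants Cxcl1 and Cxcl2 were at -0.83 (SE 0.82) and -0.88 (SE 0.63), below the threshold of the test. In long-term against control muscle 0 of the 12 passed, and neither did any other of the 11054 genes tested. In long-term against short-term muscle those 5 ligands fell, although the call of Ccl9 was lost under 18 of 25 alternatives, that of Pf4 under 2 and that of Ccl24 under 1. Cxcl1, named here after its values were seen, rose by 1.65 (SE 0.82, limma adjusted p = 0.046), with signals of 147 and 142 at 16 and 22 weeks and controls from 2.00 to 252; 3 of its 6 short-term signals were under the floor, and it was called under the common median scaling and none of the other 4.

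Of the signalling receptors, 4 of 12 with a probe set passed the filter, and the 2 that rose were Cxcr5 and Cxcr3, the receptors of Cxcl13 and of Cxcl9 and Cxcl10. Over all genes tested 12.3% rose and 39.6% fell. Cxcr5 read 51.2 and 56.0 at 1 week, 47.7 and 57.1 at 2 weeks, 42.4 at 3 weeks and 38.2 at 4 weeks, against 12.6, 23.7, 37.0 and 6.20 in controls. The 6 short-term arrays were just above the highest control, and the change was 1.76 (SE 0.51, limma adjusted p = 0.028). The call was lost under 5 of 25 alternatives, with adjusted p from 0.054 to 0.1: without control replicate 1 (0.084) or 4 (0.1), with a lower floor, without the filter, and with the mean of its probe sets. Long-term signals of Cxcr5 were 34.5, 4.57, 80.1 and 6.77, a wider spread than on the short-term arrays, and long-term against short-term did not pass (adjusted p = 0.079). Without long-term replicate 3, the 16-week muscle, that p was 0.0055.

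Cxcr3 read 36.9, 24.97, 14.6, 29.4, 28.4 and 28.1 on the short-term arrays in order of weeks, and 13.6 to 15.6 in controls. Only rat 25 lay among the controls, and the change was 1.17 (SE 0.29, limma adjusted p = 0.026). That call was lost on the deposited scale (0.053) and without short-term replicate 1, which is rat 12 (0.06), control replicate 2 (0.058) or control replicate 4 (0.054). Cxcr4, the receptor of Cxcl12, was at 0.66 (SE 0.30, limma adjusted p = 0.39), and Ccr1, a receptor of Ccl5 and Ccl7, at 0.55 (SE 0.41, limma adjusted p = 0.68). Ccr2, the receptor of Ccl2 and Ccl7, and Cx3cr1, that of Cx3cl1, did not pass the filter, and Cxcr6 was not analysed here. Ccr2 read 32.1 in rat 12 and at most 17.8 on the other short-term arrays.

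Atypical receptors bind chemokines without signalling through G proteins. Of 5 tested, 1 rose in short-term muscle, where 12.3% of all genes rose and 39.6% fell. This was Ackr1, which carries chemokines across the endothelium of small veins. It read 161.4 and 182 at 1 week, 265 and 242 at 2 weeks, 268 at 3 weeks and 357 at 4 weeks, all above the 65.4 to 144 of the controls, and changed by 1.46 (SE 0.36, limma adjusted p = 0.017; 0.074 without control replicate 3). Ackr3, which removes Cxcl12, was at 0.39 (SE 0.18), and at 0.05 before the median gene's change was subtracted (limma adjusted p = 0.85). Its signals were 742 to 1417 in short-term and 769.7 to 1269 in control muscle.

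**Figure D4:**
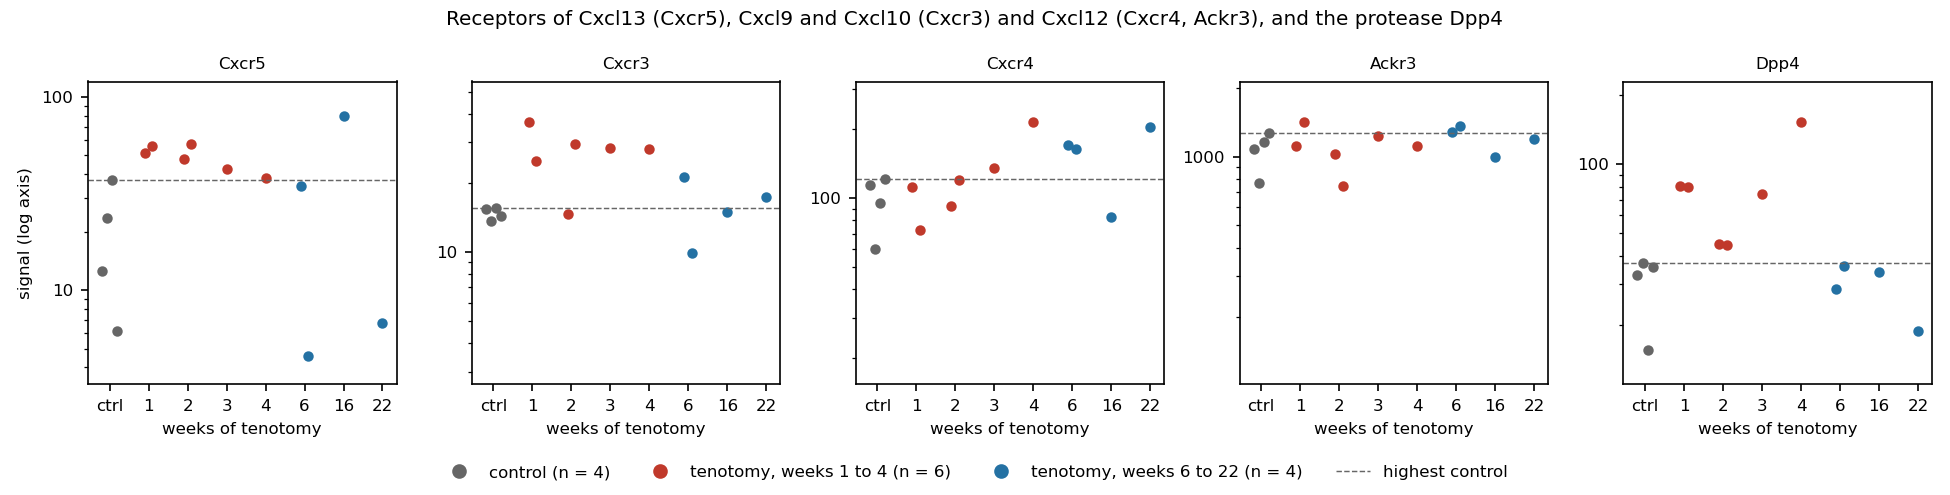
Signal of Cxcr5, Cxcr3, Cxcr4, Ackr3 and Dpp4 on each array (log axes), by weeks of tenotomy, with the highest control as a dashed line. All 6 short-term arrays of Cxcr5 and Dpp4 are above it, 5 of 6 for Cxcr3, and Cxcr4 and Ackr3 overlap the controls.

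Of 5 tested proteases known to cut chemokines, 3 rose in short-term muscle and 0 fell, where 12.3% of all genes rose and 39.6% fell. Dpp4, which trims the N-terminus of Cxcl12, Cxcl10 and other ligands, rose by 1.69 (SE 0.35, limma adjusted p = 0.0042), from 15.5 to 37.0 in controls to 44.4 to 153 in short-term muscle with no overlap. Mmp2, a gelatinase that also cuts Cxcl12 and Ccl7, rose by 2.43 (SE 0.38, limma adjusted p = 3.5e-04), from 416 to 715 in controls to 1135 to 4529.6. Mmp12, the macrophage elastase, rose by 3.302 (SE 0.85, limma adjusted p = 0.0087) and was highest at week 4, at 727, where controls were at most 12.0. Of its controls 2 of 4 were under the floor, as were 3 of 4 long-term arrays, so the size of its log2 changes depends on the floor. The further probe sets of Mmp2 and Dpp4 gave 0.83 (adjusted p = 0.11) and 1.02 (adjusted p = 0.065), in the same direction without passing. All 3 genes fell in long-term against short-term muscle, with log2 changes of -1.73 for Dpp4, -2.58 for Mmp2 and -3.40 for Mmp12 (limma adjusted p = 0.0038, 2.3e-04 and 0.0072).

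Among 18 tested cytokines, receptors and transcription factors that induce chemokines, 5 rose and 2 fell in short-term muscle. Over all genes tested 12.3% rose and 39.6% fell. Of the interferon regulatory factors, Irf8 rose by 2.18 (SE 0.34, limma adjusted p = 4.2e-04), Irf7 by 1.72 (SE 0.41, limma adjusted p = 0.011) and Irf1 by 1.22 (SE 0.16, limma adjusted p = 2.8e-04). Without rat 12 Irf7 rose by 1.39 (limma adjusted p = 0.014) and Irf8 by 1.95 (limma adjusted p = 6.5e-04). Ltb, the lymphotoxin subunit that drives Cxcl13 and Ccl21 in lymphoid tissue, rose by 1.22 (SE 0.33, limma adjusted p = 0.038), with 28.8 to 47.7 in short-term muscle against 9.67 to 27.9 in controls, and its call was lost under 6 of 25 alternatives (adjusted p from 0.052 to 0.18), among them leaving out control replicate 3 (0.18) or short-term replicate 1 (0.072), 4 (0.069) or 6 (0.064).

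Tnfrsf1a, a receptor of tumour necrosis factor, rose by 0.77 (SE 0.15, limma adjusted p = 0.03), lost under 4 of 25 alternatives, which were the deposited scale (0.13) and leaving out short-term replicate 6 (0.066) or control replicate 2 (0.085) or 4 (0.074). Nfkbia, the NF-kB inhibitor, was at -0.44 (SE 0.29) relative to the median gene and at -0.79 before that subtraction. It was called lower (limma adjusted p = 0.033) under 1 of the 5 scalings, the common median. Leaving out the filter (0.075), short-term replicate 3 (0.066) or 4 (0.062) or control replicate 2 (0.13) or 3 (0.088) also ended its call. Ifngr2, a subunit of the interferon gamma receptor, was at -0.36 (SE 0.14) relative to the median gene. The change that was tested, before that subtraction, was -0.71 (limma adjusted p = 7.9e-04). A further probe set of Ifngr2 was at 0.08 relative to the median gene (adjusted p = 0.63), and the mean of both lost the call (0.091). Tnf, Ifng and Lta did not pass the filter. In long-term against control muscle 0 of the 18 passed, and neither did any other of the 11054 genes tested.

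**Figure D5:**
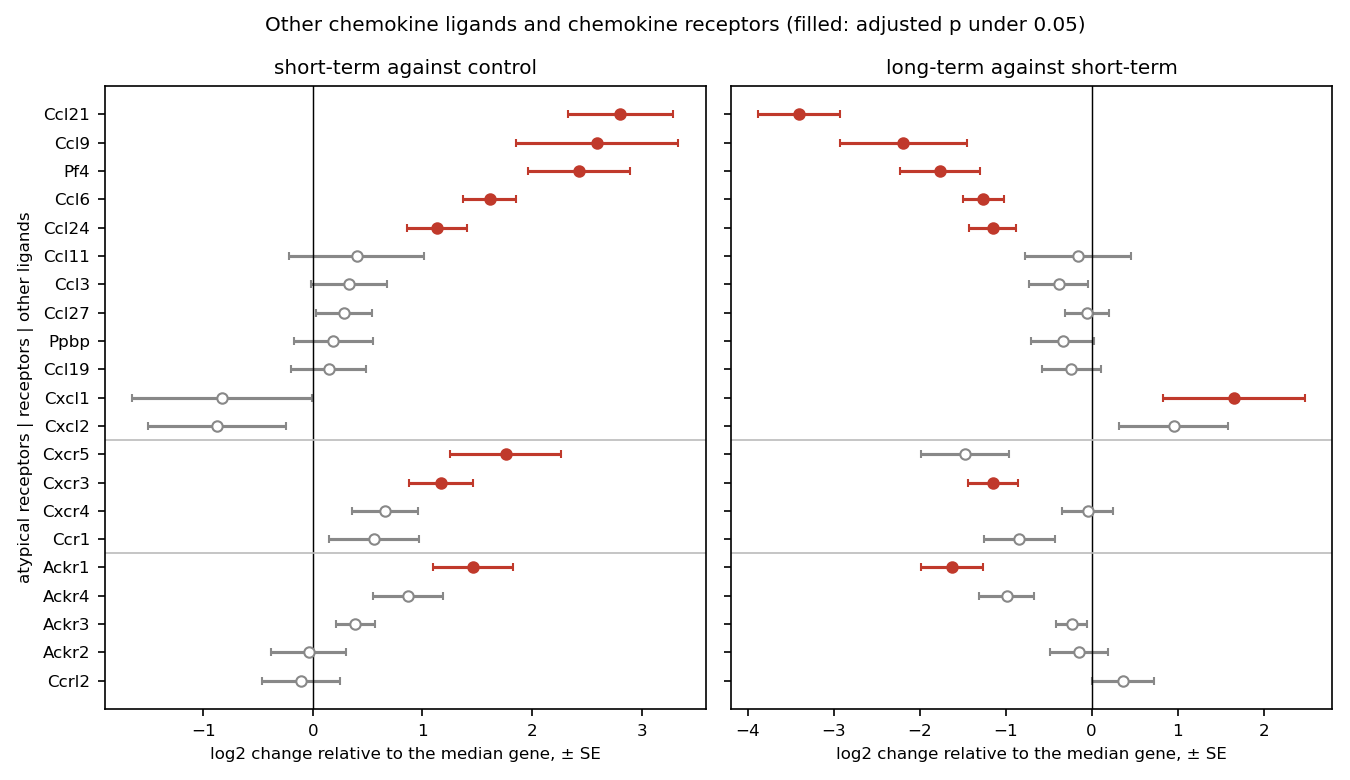
Log2 change relative to the median gene, with its SE, for the 21 tested chemokine ligands and receptors outside the list of 10, in short-term against control (left) and long-term against short-term muscle (right). Filled points have a limma adjusted p under 0.05 for the change before the median gene's change is subtracted. Ccl21, Ccl9 and Pf4 lie farthest above 0 in the left panel, and all 3 lie on the opposite side of 0 in the right panel.

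Macrophage and fibroblast markers rose with the chemokines in short-term muscle, whereas most tested markers of other immune cells were not called higher. Of 16 macrophage markers 13 rose in short-term muscle, where 12.3% of all genes rose and 39.6% fell. Their summed signals were 5289.6 to 11455 against 2094 to 3957 in controls and 1926 to 4217 in long-term muscle. Of 11 fibroblast markers 9 rose, with sums of 30208 to 53376 against 11504 to 18484 in controls. In whole muscle RNA, more cells of a type and more RNA per cell cannot be told apart, and the part of these cells in the chemokine values was not tested. T lymphocyte markers had 1 of 7 tested higher (Cd3d, limma adjusted p = 0.0096), with sums of 221.1 to 423 in short-term and 201 to 297 in control muscle, and natural killer cell markers 1 of 2 (Prf1, limma adjusted p = 0.037); neither call held under all 5 scalings. Of 4 neutrophil and 5 mast cell markers tested, 0 were called in either direction.

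B cells, which respond to Cxcl13, and plasma cells were represented by 8 markers with a probe set. Of these 4 passed the filter and 0 were called higher, where 12.3% of all genes were. Cd22 was called lower (limma adjusted p = 0.038), as 39.6% of all genes were, but under only 1 of the 5 scalings. Jchain, a plasma cell marker, was at 1.55 (SE 0.51, limma adjusted p = 0.058), with 35.0 to 264 in short-term muscle against 28.1 to 53.4 in controls. It was called lower in long-term against short-term muscle under all 5 scalings. The summed signals of the 8 markers were 183 to 519 in short-term, 184 to 406 in control and 151 to 296 in long-term muscle. Ms4a1, which encodes CD20, Cd79b, Cr2 and Blk did not pass the filter. In long-term against control muscle 0 markers of any of these cell types passed the test, and neither did any other of the 11054 genes tested.

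The genes with the nearest profiles to the other leading chemokines over the 14 arrays were found by the root mean square difference of log2 signals after each gene was centred on its own mean. For Cxcl13 they were Spon1 (0.91), Lbp (0.94) and Fcrl2 (0.99), where the median over all genes was 2.42. Spon1, a matrix protein, read 308 to 1305 in short-term muscle and 21.2 to 40.3 in controls, and Lbp, which binds bacterial lipopolysaccharide, was like Cxcl13 highest in rats 12 and 42, at 808 and 1118. For Cxcl14 they were Prkcb (0.19), Scara5 (0.20) and Arhgdib (0.21), with a median over all genes of 0.85, and for Ccl2 they were Arhgap9 (0.34), Coro1a (0.40) and Gm2a (0.42), with a median of 1.15. A gene that did not vary over the arrays would differ by 2.23 from Cxcl13, 0.62 from Cxcl14 and 0.95 from Ccl2. Scara5 read 361 to 742 in short-term muscle and 255 to 344 in controls, without overlap. Coro1a, an actin-binding protein of leukocytes, read 119 to 287 in short-term muscle and 52.6 to 78.2 in controls, and its lowest short-term array was rat 25, as for Ccl2 and Ccl7.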

How the data were processed

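RNA of 14 rat soleus muscles was measured on 1-colour expression arrays with biotin-labelled cRNA. The values are intensities that the authors deposited, made with MAS5 per the submitters' processing notes; the scaling target is not given in the sources used here. They were taken to log2, all arrays were moved to the same median, and values under the pooled 25th percentile (9.71) were set to it. Each gene was represented by its brightest probe set with a single symbol; 436 probe sets with several symbols and 9780 with none were left out, as were the 57 manufacturer control probe sets. Genes above the pooled 40th percentile on at least 4 arrays were tested (11054). The group means of all 14 arrays, and in a further fit the means of weeks 1, 2 and 6, were contrasted in limma 3.58.1 under R 4.3.3 (lmFit and eBayes with an intensity trend, Benjamini-Hochberg adjustment, threshold 0.05), after a test on simulated data. P-values are for the change on the common median scale; printed log2 changes have the median gene's change subtracted. Arrays within a group came from separate rats, and their number limits the precision.

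The members and the gene lists were chosen with earlier results of these data known. Named were all 10 members and, of the lists of other ligands, receptors, atypical receptors, proteases and inducers, every tested gene called against control, up to 8 a list by size, plus the 3 nearest profiles to Cxcl13, Cxcl14, Cxcl10 and Ccl2. The control and 6-week arrays of rats 61 and 62 are paired, since they come from the same animals; their deviations from the group means correlated at 0.41 and 0.21, against -0.30 to 0.29 for unpaired combinations. Alternatives were 4 other scalings, 2 floors, no filter, other uses of the probe sets, other fits, the rat as a block and each array left out.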

Additional observations from a re-analysis of the deposited data

Results flagged for a closer look

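Dixon's criterion was applied to 96 groups of 4 to 6 values, and 10 exceeded it; chance gives about 1 in 20. The values below are the gap to the nearest array as a share of the group's range. Rat 12 at 1 week was high for Cxcl10 (0.771, a signal of 273 beside 31.6), Irf8 (0.854, 296 beside 125) and Irf7 (0.688, 1208 beside 395). The 22-week muscle was low for Irf8 (0.93, 20.9 beside 42.3) and Ackr1 (0.963, 34.7 beside 139), and control replicate 3 was low for Dpp4 (0.867, 15.5 beside 33.0) and Ltb (0.874, 9.67 beside 24.4). Mmp12 was high in control replicate 2 (0.878) and in the 16-week muscle (1), both at signals near the floor. The dim probe set 1396129_at of Cxcl14 was low in rat 32 (0.655, 16.9 beside 26.98).

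The effects of short-term and long-term tenotomy against the shared controls differed for 17 of the 18 named genes, by the limma test of long-term against short-term muscle. These 18 were named because they were called in short-term against control muscle, and this test reuses the same short-term arrays. Nothing is therefore read from the count. Of all 11054 genes tested, 42.4% were called higher and 12% lower in long-term against short-term muscle. Among ligands the difference in log2 change was -3.4 for Ccl21, -2.19 for Ccl9, -1.76 for Pf4, -1.26 for Ccl6 and -1.15 for Ccl24. Among receptors it was -1.15 for Cxcr3, a call lost under 9 of 25 alternatives, and -1.62 for Ackr1. The proteases Mmp12, Mmp2 and Dpp4 differed by -3.4 (with a size that depends on the floor), -2.58 and -1.73. Among inducers the differences were -2.27 for Irf8, -1.44 for Irf7, -1.46 for Ltb, -1.09 for Irf1, -0.805 for Tnfrsf1a, 0.37 for Nfkbia and 0.167 for Ifngr2. Before the median gene's change was subtracted, which is the change tested, Nfkbia differed by 0.74 and Ifngr2 by 0.54. The call of Irf7 was lost under 9 alternatives, that of Nfkbia under 11, those of Ifngr2 and Tnfrsf1a under 4 each and that of Ltb under 1. For the remaining named gene, Cxcr5, the difference was -1.47 (limma adjusted p = 0.079).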

How the results depend on the processing

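Under the alternatives 755 values of the members moved by less than the spread between replicates. The 5 exceptions were Cxcl12 with the mean of its probe sets (1.22 in short-term against control, -1.04 in long-term against short-term), Cxcl14 with the same mean (-0.81 in long-term against short-term), and Ccl2 (1.05) and Cx3cl1 (0.28) in the paired analysis. Of the tests of named genes 794 kept their side of the threshold, 94 lost it and 3 gained it, and Ifngr2 in long-term against short-term turned to -0.10 with the mean of its probe sets (limma adjusted p = 0.43). The cause of these shifts was not tested.

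The count of genes called went from 6020 to 3982 on the deposited scale for long-term against short-term, and from 3860 to 2324 on the deposited scale, 2335 with quantile normalization and 2376 with the trimmed mean for 1 week against control. Higher and lower calls in short-term against control were 1100 and 3232 on the deposited scale (25.4% higher), 2074 and 2808 with the 75th percentile (42.5%) and 2002 and 2475 with quantile normalization (44.7%); in long-term against short-term they were 4689 and 1331 (77.9% higher) with the median, 2772 and 1210 (69.6%) as deposited, 2711 and 2042 (57%), 2301 and 1933 (54.3%), and 1904 and 2571 (42.5%) with the trimmed mean. Without the filter 1 gene was called in long-term against control and 4 at 6 weeks. Receptors and other ligands called in long-term against short-term went from 8 to 5 with a floor at the 10th percentile. Members with every short-term array above the controls went from 2 to 4 with the trimmed mean, and at week 1 from 4 to 7 with the trimmed mean. Over all genes, those called higher in short-term muscle also went from 1358 to 2575 with it. With every probe set counted by itself, 7 of the 14 probe sets, from 6 genes, were above the controls at week 1. The share of all genes above the controls was not counted under these settings, so nothing is read from the member counts.

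The fit with the replicate block held only the 4 arrays of rats 61 and 62 at 6 weeks, so it gives 1 contrast for both long-term and 6 weeks against control. It called 10 genes, 990 had an unadjusted p under 0.05, and 1 residual degree of freedom was left. The unpaired fits called 0, but they also held other arrays. Tests of the named genes were not run with the block.

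Leaving out each array in turn gave 4911 to 5947 genes called in short-term against control, 0 to 0 in long-term against control and 4853 to 6144 in long-term against short-term. At 1 week it gave 1703 (without short-term replicate 1) to 4376, with 2381 without short-term replicate 2, at 2 weeks 3319 (without short-term replicate 4) to 5262, and at 6 weeks 0 to 37 (without control replicate 4). Receptors and other ligands called ranged from 5 (without control replicate 4) to 8 in short-term against control, from 0 to 0 in long-term against control, and from 5 (without short-term replicate 4 or 5 or long-term replicate 3 or 4) to 8 in long-term against short-term. Members with every array above the controls ranged from 2 to 4 (without short-term replicate 3) for short-term, from 4 to 8 (without short-term replicate 2) for 1 week and from 0 to 0 for long-term muscle. A group with an array left out meets this condition more easily. The share of all genes was not counted here, so nothing is read from these member counts. A lone array at a week was assumed to vary like the others.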
